A study of Mus musculus with 12 samples.

Results

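The genes described here are 9 mouse Toll-like receptors, Tlr1, Tlr2, Tlr3, Tlr4, Tlr6, Tlr7, Tlr8, Tlr9 and Tlr13, and Cd14, the co-receptor that passes bacterial products to several of them. They were taken by gene symbol from the count files, 10 of the 26699 symbols listed there, and all 10 passed the filter on low counts, although Tlr3 did so mainly through 1 group. Synovium from adult C57BL/6 wild-type mice was held ex vivo for 4 h with CGRP (100 nM), the neuropeptide calcitonin gene-related peptide released by pain-sensing neurons, or without it. From it, macrophages carrying MHC class II were collected by flow sorting as CD11c-negative (the IAIE subset) or CD11c-positive (the CD11c subset) cells for sequencing of total RNA. Each combination of subset and treatment gave 3 libraries, 12 in all, so the 4 groups were IAIE control, IAIE CGRP, CD11c control and CD11c CGRP. All groups came from wild-type synovial explants, so each had been dissected, cultured and digested with collagenase, and no freshly sorted or ligand-stimulated cells are among them. The sample titles call the control libraries Healthy, and the methods describe explants held with vehicle for 4 h. The labels do not say whether the 3 libraries of a group came from separate animals, and p-values therefore measure the spread between these libraries.

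Toll-like receptors recognise conserved microbial molecules and some products of damaged tissue. TLR2 pairs with TLR1 or TLR6 at the cell surface to bind lipopeptides, and TLR4 binds lipopolysaccharide together with MD-2, encoded by Ly96, after CD14 has delivered it. TLR3, TLR7, TLR8, TLR9 and TLR13 sit in endosomes and read nucleic acids: TLR3 double-stranded RNA, TLR7 and TLR8 single-stranded RNA, TLR9 unmethylated CpG DNA and TLR13 bacterial ribosomal RNA. Most signal through the adaptor MyD88 to NF-kB and interferon regulatory factors, TLR3 signals through TRIF, encoded by Ticam1, and TLR4 uses both.

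Library totals ranged from 2127191 to 5649698 counts, and 3 counts, taken as the floor of detection, corresponded to between 0.534 and 1.34 CPM (the count as a share of the library total, scaled between libraries by TMM and in the usual CPM unit). Depth went with treatment: IAIE control totals of 2127191 to 3310825 lay below IAIE CGRP totals of 4009081 to 5364559. CD11c control totals of 2455650 to 4465508 overlapped CD11c CGRP totals of 4329993 to 5649698. The floor in CPM was therefore higher in IAIE control than in IAIE CGRP libraries. Itgax, which encodes CD11c, averaged 237 ± 29.0 CPM (SD, n = 3) in CD11c control and 6.19 ± 4.76 CPM in IAIE control, and H2-Ab1, an MHC class II chain, was at 2085 CPM or more in every library. Summed over 10 macrophage markers, IAIE control libraries held 8084 to 10878 CPM and CD11c control libraries 6029 to 7801 CPM. In CD11c control most of this sum was Lyz2, whose level is given below. Markers of other cells were present at lower summed levels: 7 B cell markers reached 71.6 to 140 CPM in IAIE control and 9.44 to 17.5 CPM in CD11c control, 5 plasmacytoid dendritic cell markers 107 to 109 CPM and 40.0 to 74.4 CPM, and 8 conventional dendritic cell markers 260 to 281 CPM and 657 to 745 CPM. Fibroblast markers, 8 in all, spread from 169 to 1383 CPM in IAIE control and from 24.5 to 35.6 CPM in CD11c control, and 6 endothelial markers stayed between 10.3 and 126 CPM in the control libraries. The 6 monocyte markers summed to 1147 to 2065 CPM in IAIE control and 5664 to 6527 CPM in CD11c control, most of it Fn1. In CD11c control this range overlapped that of the macrophage markers. The 7 neutrophil markers summed to 88.2 to 213 CPM in IAIE control and 30.6 to 161 CPM in CD11c control. Ly6g was at 0 in every IAIE control and CD11c CGRP library.

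Levels of different genes were compared as CPM per kilobase of annotated exon, since a longer transcript collects more reads. Cd14 stood far above the receptors, at 1318 ± 192 CPM per kb (SD, n = 3) in IAIE control and 1668 ± 191 CPM per kb in CD11c control. Tlr2 came next in all 4 groups, with 109 ± 21.0 CPM per kb in IAIE control and 48.0 ± 10.6 CPM per kb in CD11c control, and took 54.4% ± 5.04 and 48.9% ± 8.10 of the per-length sum over the 9 receptors. Tlr9 was the third transcript in both control groups, at 41.4 ± 2.27 CPM per kb in IAIE control and 25.4 ± 4.12 CPM per kb in CD11c control. The 3 lowest were Tlr1, Tlr6 and Tlr3 in every group, and Tlr3 averaged between 0.375 and 1.32 CPM per kb.

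In IAIE control cells the middle of this order was Tlr7 at 17.2 ± 3.53, Tlr13 at 10.3 ± 1.5, Tlr4 at 8.25 ± 0.512 and Tlr8 at 7.42 ± 1.51 CPM per kb, and of these neighbours Tlr4 and Tlr8 overlapped between libraries. In CD11c control cells Tlr4 led the same set at 6.62 ± 0.509 CPM per kb, followed by Tlr13 at 4.66 ± 0.977, Tlr8 at 4.15 ± 1.43 and Tlr7 at 3.83 ± 1.01 CPM per kb, and the ranges of Tlr13, Tlr8 and Tlr7 overlapped from each to the next. With CGRP, Tlr4 took the third place in the CD11c subset at 14.8 ± 2.65 CPM per kb, above Tlr9 at 11.0 ± 2.30 CPM per kb, although their libraries overlapped. The annotated length mattered for Tlr4: with its longest transcript in place of all exons its level was 11.2 CPM per kb in IAIE control and 9.02 CPM per kb in CD11c control. Tlr1 and Tlr6 share 15.4% of the 50-base words of Tlr1, so that reads from the shared stretch could be given to either gene, and both were low.

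**Figure D1:**
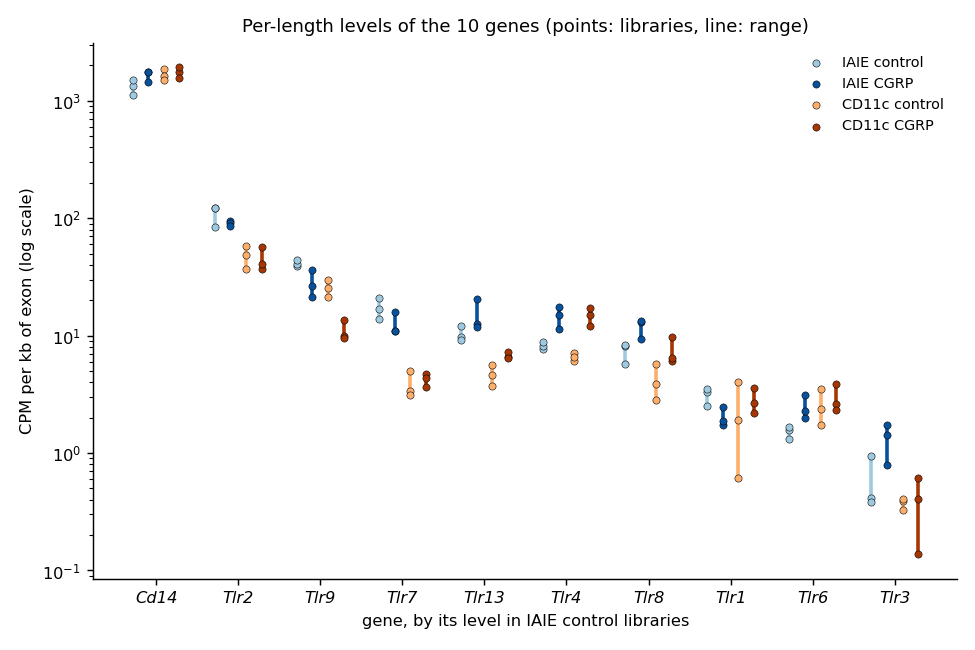
CPM per kilobase of exon on a log scale for each of the 10 genes in the 12 libraries, with a point per library, a line over the range of each group of 3 and genes ordered by their mean in IAIE control. Cd14 lies above 1000 CPM per kb in every library, Tlr2 follows in every group, and Tlr3 is lowest.

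The first comparison asked which of these transcripts changed in sorted macrophages after the explant had met CGRP. In the IAIE subset 1 of the 10 genes passed the threshold (edgeR's quasi-likelihood test, Benjamini-Hochberg adjusted p under 0.05 over all 11927 genes tested), and this was Tlr4, which rose. In the CD11c subset 2 passed, Tlr4 higher and Tlr9 lower. Over all genes tested, 9.21% passed in the IAIE subset, 5.32% higher and 3.89% lower. In the CD11c subset 10.9% passed, 6.29% higher and 4.59% lower, so 1 and 2 of 10 lie close to the background of each comparison.

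Tlr4, the lipopolysaccharide receptor, was at 43.1, 45.6 and 48.8 CPM in the IAIE control libraries and at 63.0, 83.3 and 97.7 CPM in the IAIE CGRP libraries. In the CD11c subset it was at 33.9, 39.5 and 36.9 CPM in control and at 66.7, 83.7 and 96.1 CPM with CGRP. Every CGRP library lay above every control library in both subsets. The rise was 1.78-fold in IAIE cells (log2 fold change 0.83 ± 0.18 SE, adjusted p = 0.00614, edgeR) and 2.23-fold in CD11c cells (1.16 ± 0.19, adjusted p = 0.000276, edgeR). Tlr4 went from 4.21% ± 0.740 to 8.23% ± 1.87 of the per-length receptor sum in IAIE cells and from 6.81% ± 0.815 to 15.7% ± 3.79 in CD11c cells. Its 2 partners did not pass in either subset: Cd14 is given below, and Ly96 changed by 0.10 ± 0.40 on the log2 scale in IAIE cells and by -0.41 ± 0.42 in CD11c cells (adjusted p = 0.926 and 0.639, edgeR). Of 6 tested fibroblast markers, 3 fell in IAIE cells and 2 rose in CD11c cells in edgeR, and limma-voom called 0 in each. The sum over all 8 fibroblast markers ran from 52.2 to 1571 CPM in IAIE CGRP and from 74.9 to 388 CPM in CD11c CGRP libraries. The macrophage markers summed to 7428 to 8918 CPM in IAIE CGRP libraries, overlapping control, and to 4193 to 5279 CPM in CD11c CGRP libraries, wholly below the 6029 to 7801 CPM of control. Of these 10 markers Fcgr1 rose in each subset and Lyz2 fell in the CD11c subset, from 4368 ± 894 to 2680 ± 237 CPM. Most of the fall of the sum was that of Lyz2. The median of the 10 markers in CD11c cells was -0.17 on the log2 scale, beside 0.00 over all genes. The part of these cells in the Tlr4 result was not tested.

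Tlr9, the receptor for CpG DNA, was at 136, 143 and 152 CPM in IAIE control and at 92.9, 127 and 74.5 CPM in IAIE CGRP libraries. In CD11c cells it was at 74.2, 103 and 87.5 CPM in control and at 47.6, 34.4 and 33.1 CPM with CGRP. All CGRP libraries were below all control libraries in each subset, and the CD11c CGRP libraries were the lowest of the 12. The fall passed in the CD11c subset, where the CGRP level was 0.434 of control (log2 fold change -1.20 ± 0.20, adjusted p = 0.000341, edgeR). In the IAIE subset the estimate was -0.55 ± 0.19 with an adjusted p of 0.0773 (edgeR), and over the 10 other fits this p lay between 0.0393 and 0.123, under 0.05 in 3 of them. Without replicate 2 of IAIE CGRP, the highest library of its group, the estimate was -0.78 and the adjusted p 0.0224 (edgeR). The ratio of Tlr4 to Tlr9 per length was between 0.198 and 0.201 in IAIE control, 0.412 to 0.821 in IAIE CGRP, 0.240 to 0.285 in CD11c control and 0.878 to 1.82 in CD11c CGRP libraries.

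Tlr9 is also strong in B cells and plasmacytoid dendritic cells, so their markers are given beside it. The B cell markers summed to 29.6 to 57.9 CPM in IAIE CGRP and 6.58 to 11.9 CPM in CD11c CGRP libraries, lower than or overlapping the control ranges above, and 0 of 7 passed in the IAIE subset in edgeR, where 1 had an unadjusted p under 0.05 and DESeq2 and limma-voom each called 1. Their medians were -1.05 and -1.55 on the log2 scale, against -0.02 and 0.00 over all genes tested, and their part in the Tlr9 result was not tested. The plasmacytoid markers summed to 77.0 to 84.8 CPM in CD11c CGRP, above the 40.0 to 74.4 CPM of CD11c control, and nearly all of this was Tcf4, at 49.8 ± 18.2 CPM in control and 77.2 ± 5.00 CPM with CGRP. The more specific Siglech was at or under the floor in CD11c cells, at 0.506 ± 0.442 and 0.758 ± 0.445 CPM, and Ccr9 averaged 3.13 ± 0.741 and 1.56 ± 0.790 CPM. Markers of other cells also moved with CGRP in the CD11c subset. Of 6 tested conventional dendritic cell markers Cd209a fell from 297 ± 7.06 to 79.3 ± 9.84 CPM, Flt3 fell from 18.6 ± 1.96 to 4.46 ± 2.91 CPM and Ccr7 rose from 240 ± 33.4 to 576 ± 53.9 CPM, while in IAIE cells Flt3 and Clec10a fell. The monocyte markers summed to 2588 to 2917 CPM in CD11c CGRP libraries, below control, with 1 of 6, Fn1, called lower, and among 6 tested neutrophil markers Csf3r fell from 18.0 ± 1.28 to 11.0 ± 1.85 CPM. Their part in the Tlr9 result was not tested either. In bulk libraries such as these, fewer cells of a type and less RNA per cell cannot be told apart.

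The sequence just upstream of Tlr9 is shown because this gene fell, with those of Tlr8 and Tlr13 beside it because these other endosomal receptors had estimates above 0 in both subsets. Windows are from RefSeq on GRCm38.p6, printed 5′ to 3′ on the gene's strand, and 6 of the 10 genes had one. Those of Tlr9 and Tlr8 end at the base before the RefSeq start, while that of Tlr13 stops earlier, where an exon annotated in GENCODE begins. Capitals mark matches to searched motifs on either strand.
Tlr9, chr9:106222348-106222597, + strand: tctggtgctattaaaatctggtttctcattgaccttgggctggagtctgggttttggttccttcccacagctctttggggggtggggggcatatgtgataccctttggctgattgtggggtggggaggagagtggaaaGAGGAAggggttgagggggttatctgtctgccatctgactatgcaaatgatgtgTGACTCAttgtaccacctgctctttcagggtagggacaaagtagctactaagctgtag
Tlr8, chrX:167264330-167264579, - strand: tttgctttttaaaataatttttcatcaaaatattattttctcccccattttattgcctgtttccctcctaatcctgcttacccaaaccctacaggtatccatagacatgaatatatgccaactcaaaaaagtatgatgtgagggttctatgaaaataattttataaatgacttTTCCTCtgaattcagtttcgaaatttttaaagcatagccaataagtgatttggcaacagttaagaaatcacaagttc
Tlr13, chrX:106143025-106143203, + strand: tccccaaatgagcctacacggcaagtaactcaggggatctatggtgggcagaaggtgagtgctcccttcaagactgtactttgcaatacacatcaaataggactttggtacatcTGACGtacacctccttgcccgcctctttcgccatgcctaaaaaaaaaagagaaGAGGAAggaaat
Searched were the PU.1 core GAGGAA, the AP-1 motif TGANTCA, the CRE half-site TGACG, a kappaB motif (GGGA, any 4 bases, CC) and the interferon-response motif (GAAA, any 2 bases, GAAA). Tlr9 held a PU.1 core starting 112 bases and an AP-1 motif starting 58 bases before its start, Tlr8 a PU.1 core 77 bases before, and Tlr13 a CRE half-site 136 bases and a PU.1 core 83 bases before, all counted from the RefSeq start and not from the end of the printed window. The PU.1 core is in 23.3% and the AP-1 motif in 6.75% of 32851 upstream windows of 250 bases, and the CRE half-site is in 10.6% and the PU.1 core in 17.1% of windows of the 179 bases available for Tlr13. The matches describe these letters only.

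Among the other cell-surface receptors none passed with CGRP in either subset in edgeR. Tlr2, the shared partner for lipopeptides, was at 365, 364 and 255 CPM in IAIE control and 286, 273 and 257 CPM in IAIE CGRP, and at 175, 147 and 112 CPM in CD11c control and 173, 111 and 123 CPM in CD11c CGRP. Its groups overlapped in both subsets, with estimates of -0.27 ± 0.18 and -0.09 ± 0.18 (adjusted p = 0.423 and 0.856, edgeR). Tlr1 was at 11.2, 11.8 and 8.51 CPM in IAIE control and 5.82, 8.26 and 6.22 CPM with CGRP, without overlap, yet the estimate of -0.64 ± 0.47 did not pass (adjusted p = 0.484, edgeR). In CD11c control Tlr1 spread from 2.04 CPM, which is 5 counts, to 13.6 CPM. Tlr6 was at 5.89, 4.87 and 6.27 CPM in IAIE control and 7.41, 8.50 and 11.7 CPM with CGRP, again without overlap and without passing (0.71 ± 0.39, adjusted p = 0.314, edgeR). In CD11c cells the Tlr6 libraries overlapped, at 6.44 to 13.1 CPM in control and 8.66 to 14.4 CPM with CGRP.

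Cd14 was at 2291, 2610 and 1946 CPM in IAIE control and 2525, 3074 and 3034 CPM in IAIE CGRP libraries, 1.26-fold higher on the fit but with overlap (0.33 ± 0.13, adjusted p = 0.130, edgeR). In CD11c cells it was at 3246, 2831 and 2592 CPM in control and 3040, 3355 and 2729 CPM with CGRP (0.07 ± 0.13, adjusted p = 0.813, edgeR). The gene was abundant in all 12 libraries, between 1946 and 3355 CPM.

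Of the endosomal receptors other than Tlr9, none passed. Tlr8 was at 29.5, 20.4 and 30.0 CPM in IAIE control and 46.6, 33.5 and 47.3 CPM with CGRP, and at 10.2, 14.0 and 20.4 CPM in CD11c control and 21.7, 23.3 and 34.7 CPM with CGRP. No CGRP library overlapped the controls of its subset, and the estimates were 0.68 ± 0.27 and 0.81 ± 0.28 (adjusted p = 0.134 and 0.0681, edgeR). In the CD11c subset the adjusted p lay between 0.0339 and 0.164 over the 10 other fits, under 0.05 in 2, and it was 0.0360 without replicate 3 of CD11c control. Tlr13 was at 41.9, 51.6 and 39.4 CPM in IAIE control and 53.7, 51.3 and 88.6 CPM with CGRP, where 1 library stood apart from the other 2, and at 15.9, 24.3 and 20 CPM in CD11c control and 28.6, 31.4 and 27.9 CPM with CGRP. Its estimates were 0.54 ± 0.22 and 0.53 ± 0.23 (adjusted p = 0.151 and 0.181, edgeR), with groups apart in the CD11c subset only.

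Tlr7 was at 69.2, 85.1 and 56.4 CPM in IAIE control and 64.8, 44.9 and 44.5 CPM with CGRP, and at 13.9, 20.3 and 12.7 CPM in CD11c control and 19.4, 17.8 and 14.8 CPM with CGRP. Both pairs overlapped, and the estimates of -0.46 ± 0.22 and 0.14 ± 0.25 did not pass (adjusted p = 0.237 and 0.813, edgeR). Tlr3 was near the floor, at 2.17, 2.01 and 4.92 CPM in IAIE control, 7.41, 8.99 and 4.15 CPM in IAIE CGRP, 2.04, 2.10 and 1.72 CPM in CD11c control and 2.11, 3.22 and 0.712 CPM in CD11c CGRP. These levels rest on 4 to 37 counts a library, and no CGRP effect on Tlr3 was detectable at this depth (1.2 ± 0.64 and 0.02 ± 0.68, adjusted p = 0.291 and 0.993, edgeR).

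Without regard to the test, 5 of 10 genes had no overlap between IAIE CGRP and IAIE control libraries, Tlr4, Tlr6 and Tlr8 higher and Tlr1 and Tlr9 lower, where 24.9% of all genes tested had none, 12.9% higher and 12% lower. In the CD11c subset 4 of 10 had none, Tlr4, Tlr8 and Tlr13 higher and Tlr9 lower, against 29.2% of all genes tested, 15.4% higher and 13.8% lower. The median log2 fold change of the 10 genes was 0.44 in IAIE cells and 0.19 in CD11c cells, beside -0.02 and 0.00 over all genes.

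**Figure D2:**
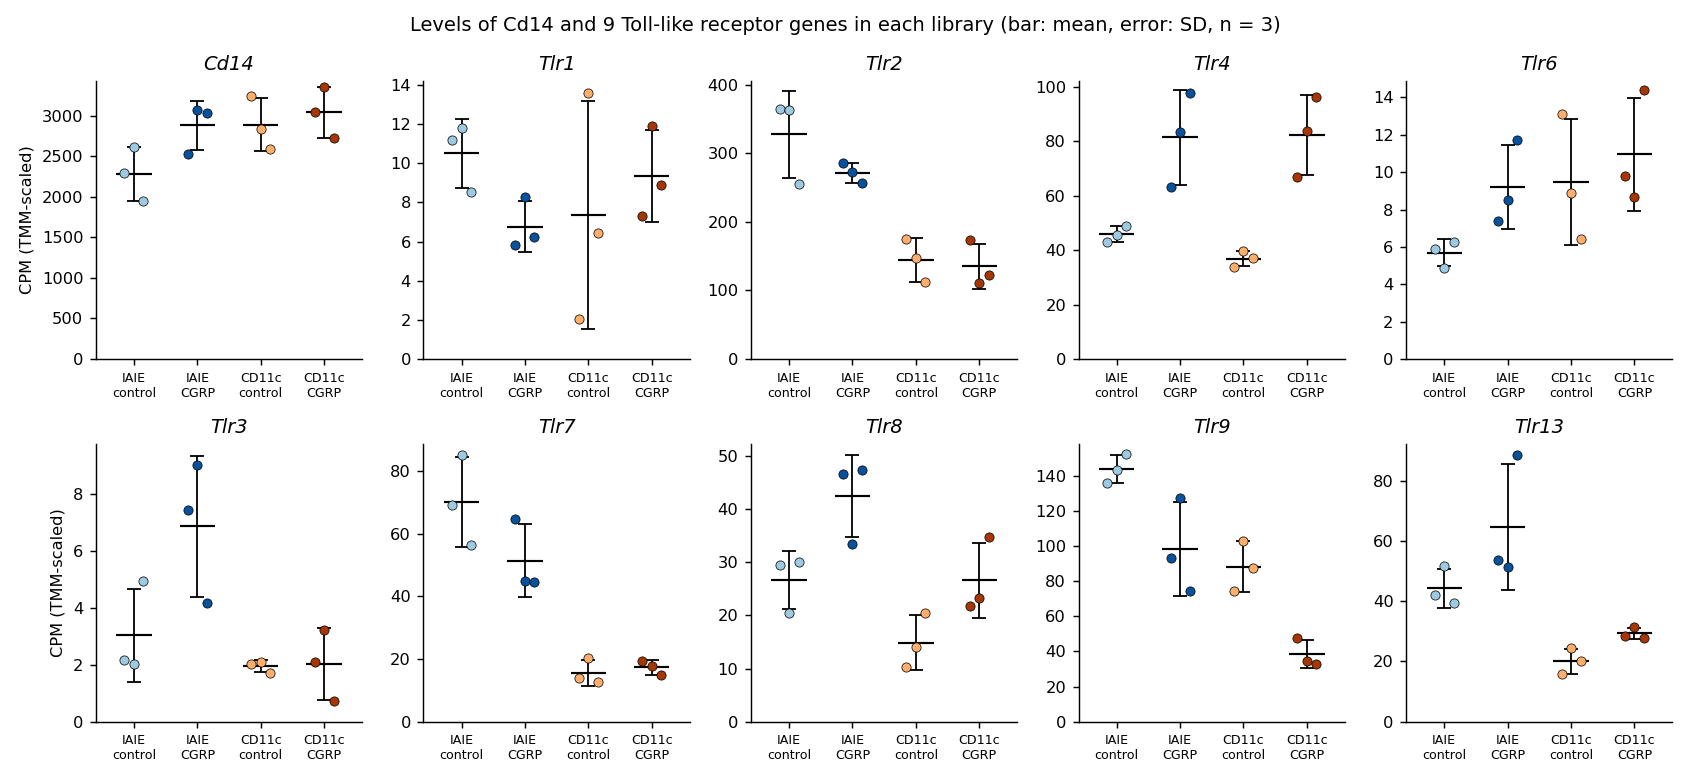
CPM of each of the 10 genes in the 12 libraries by subset and treatment, on linear axes from 0, with a point per library, a horizontal bar at the mean of 3 and an error bar of 1 SD. Tlr4 is higher with CGRP in both subsets, Tlr9 is lowest in CD11c CGRP at 33.1 to 47.6 CPM, and Tlr2, Tlr7 and Tlr13 are lower in CD11c than in IAIE cells of the same treatment.

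**Figure D3:**
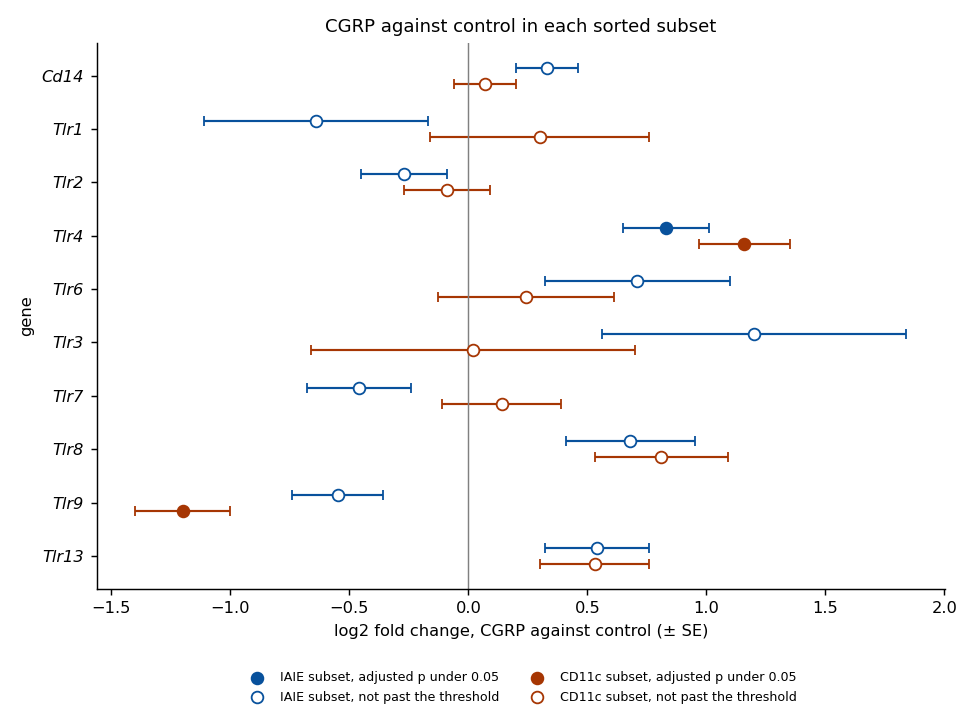
Log2 fold change of CGRP against control for the 10 genes, IAIE subset in blue and CD11c subset in brown, with bars of 1 SE and filled points for an adjusted p under 0.05. Filled points are Tlr4 in both subsets, at 0.83 and 1.16, and Tlr9 in the CD11c subset, at -1.20.

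The next comparison asked whether the CGRP effect differed between the subsets. None of the 10 genes passed (edgeR), 1 had an unadjusted p under 0.05, and DESeq2 and limma-voom also called 0. Of all genes tested, 0.151% passed, 0.134% with a higher and 0.0168% with a lower effect in CD11c cells. The lowest adjusted p was that of Tlr9, whose CGRP effect was lower in CD11c than in IAIE cells by -0.65 ± 0.27 on the log2 scale (adjusted p = 0.489, edgeR). For Tlr4 the difference between the effects was 0.32 ± 0.26 (adjusted p = 0.810, edgeR). Tlr9 passing in CD11c but not in IAIE cells therefore was not shown to be a difference between them.

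The subsets themselves were then compared within each treatment. In control libraries 5 of 10 genes passed, all lower in CD11c than in IAIE cells: Tlr2, Tlr7, Tlr8, Tlr9 and Tlr13. With CGRP 4 of 10 passed, again all lower: Tlr2, Tlr7, Tlr9 and Tlr13. Of all genes tested 21.2% passed in control libraries, 10.2% higher and 10.9% lower, and 16.9% passed in CGRP libraries, 8.36% higher and 8.51% lower. The median of the 10 genes was -0.65 in control and -0.84 in CGRP libraries, beside -0.02 and 0.00 over all genes. The 2 comparisons use separate libraries, but each shares its libraries with the CGRP comparisons above.

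Tlr7, a sensor of single-stranded RNA, had the widest gap of the genes that passed in each treatment. Its control libraries, at 56.4 to 85.1 CPM in IAIE and 12.7 to 20.3 CPM in CD11c cells, gave 4.48-fold lower levels in CD11c cells (log2 fold change -2.16 ± 0.24, adjusted p = 3.06e-06, edgeR), and the CGRP libraries 2.96-fold lower levels (-1.57 ± 0.23, adjusted p = 7.13e-05, edgeR). Tlr2 was 2.28-fold lower in control (-1.19 ± 0.19, adjusted p = 0.000120, edgeR) and 2.00-fold lower with CGRP (-1.0 ± 0.18, adjusted p = 0.000615, edgeR). Tlr13 was 2.19-fold lower in control and 2.21-fold lower with CGRP (-1.13 ± 0.24 and -1.14 ± 0.22, adjusted p = 0.00177 and 0.00106, edgeR). For all 3 genes every CD11c library lay below every IAIE library of the same treatment, and the calls held in each of the 11 other fits and with any library left out.

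Tlr9 was 1.62-fold lower in CD11c cells in control (-0.70 ± 0.19, adjusted p = 0.0125, edgeR) and 2.55-fold lower with CGRP (-1.35 ± 0.20, adjusted p = 5.74e-05, edgeR). The control call was lost without replicate 1 or replicate 3 of CD11c control, where the adjusted p rose to at most 0.0682. Tlr8 was at the threshold in control (-0.80 ± 0.28, adjusted p = 0.0495, edgeR), with overlapping libraries, and passed in only 4 of 11 other fits and 2 of 12 fits with a library left out, over which its adjusted p ran from 0.0214 to 0.141 and from 0.0267 to 0.182. Leaving out replicate 1 of CD11c control alone took the control count from 5 genes to 3. With CGRP Tlr8 gave -0.68 ± 0.26 (adjusted p = 0.0901, edgeR).

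Tlr4 and Cd14 did not follow this pattern. Tlr4 gave -0.31 ± 0.19 in control, without overlap, and 0.01 ± 0.18 with CGRP (adjusted p = 0.285 and 0.979, edgeR). Cd14 gave 0.34 ± 0.13 in control (adjusted p = 0.0724, edgeR, and between 0.00984 and 0.172 over the other fits, 4 of which passed) and 0.08 ± 0.13 with CGRP (adjusted p = 0.764, edgeR). Tlr6 was higher in CD11c control than in IAIE control libraries without overlap, but gave 0.72 ± 0.40 (adjusted p = 0.229, edgeR). Tlr3 was lower in CD11c CGRP than in IAIE CGRP libraries without overlap (-1.77 ± 0.64, adjusted p = 0.0643, edgeR, and under 0.05 in 2 of 10 other fits), and the filter on low counts kept it for its level in IAIE CGRP. Counted without the test, 6 of 10 genes had no overlap in control, 1 higher and 5 lower in CD11c cells. Of all genes tested 34.2% had none in control (16.7% higher and 17.5% lower). With CGRP 5 of 10 had none, all lower, against 34.8% of all genes tested (17.8% higher and 17% lower). Tlr3 is 1 of these 5, so this count rests in part on the filter.

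**Figure D4:**
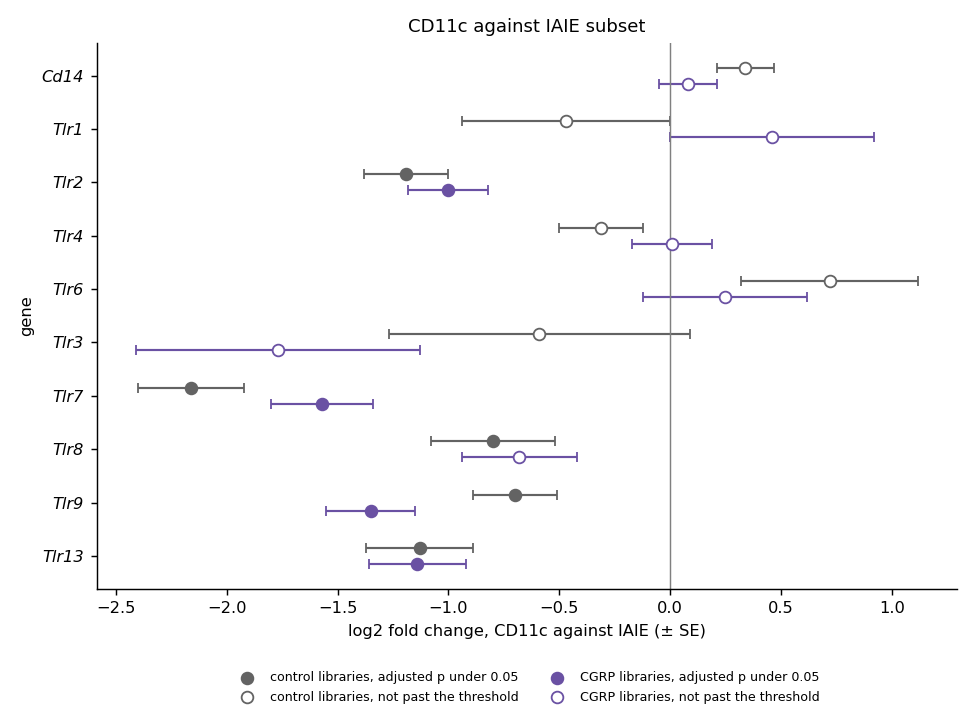
Log2 fold change of CD11c against IAIE cells for the 10 genes in control libraries (grey) and CGRP libraries (purple), with bars of 1 SE and filled points for an adjusted p under 0.05. The filled points are all below 0, from -0.70 for Tlr9 to -2.16 for Tlr7 in control.

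The marker lists also differed between the subsets, where 21.2% of all genes tested passed in control and 16.9% with CGRP. Of 10 macrophage markers 9 were lower in CD11c control than in IAIE control cells and 8 with CGRP, with medians of -1.52 and -1.24 on the log2 scale. Of 7 B cell markers 6 were lower in each treatment, 2 of 3 tested plasmacytoid markers (Siglech and Tcf4) in control and 1 (Siglech) with CGRP, and 3 of 6 tested conventional dendritic cell markers (Zbtb46, Cd209a and Ccr7) were higher in both, while Clec10a was lower in control, at 61.8 ± 20.3 against 137 ± 21.7 CPM. The 7 B cell markers together summed to at most 17.5 CPM in CD11c control and 11.9 CPM in CD11c CGRP libraries. Siglech was at or under the floor in CD11c cells. The filter on low counts kept such genes mainly for their level in IAIE cells. The B cell and Siglech counts therefore rest in part on the filter. The part of the cells marked by these lists in the receptor levels was not tested. Lyve1, a marker of lining macrophages, averaged 484 ± 94.7 CPM in IAIE control and 137 ± 37.9 CPM in CD11c control (-1.83 ± 0.24, adjusted p = 1.46e-05, edgeR).

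The genes whose levels followed each receptor most closely over the 12 libraries were sought among 8780 other tested genes of at least 5 CPM on average, by Pearson's r of log2(CPM + 1). These coefficients are descriptions, the best of many, and the libraries share the same 4 groups. Tlr4 was closest to Cd36, a scavenger receptor that can join TLR4 and TLR6 (r = 0.977). Tlr2 was closest to Lyve1 (0.986), followed by the complement genes C4b (0.985) and C1qb (0.982). Tlr7 was closest to Dse (0.986), Tlr13 to Mcl1, an apoptosis inhibitor (0.971), and Tlr8 to Rxra, a nuclear receptor (0.942). Tlr9 was closest to Dbf4 (0.968) and then to Siglec1, a macrophage sialic acid receptor (0.961). Cd14 was closest to Ginm1 (0.942), Tlr1 to Mmachc (0.947), Tlr3 to Kdm7a (0.923) and Tlr6 to Magt1 (0.916).

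The other 3 mouse receptors of the family were low. Tlr5, the flagellin receptor, was at 8.95 to 12.1 CPM in IAIE control, 5.47 to 8.47 CPM in IAIE CGRP and at most 3.74 CPM in CD11c libraries. It was lower in CD11c cells in control (-2.50 ± 0.66, adjusted p = 0.0104, edgeR) and with CGRP (-2.54 ± 0.68, adjusted p = 0.0127, edgeR) and did not pass for CGRP. The filter on low counts kept Tlr5 for its level in IAIE cells. The CD11c side of these differences, at 0 to 16 counts a library, was near the floor. Tlr11 and Tlr12 did not pass the filter on low counts. Tlr11 reached 6.53 and 3.51 CPM in replicates 1 and 2 of CD11c control, and Tlr12 at most 3 counts in any library.

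Genes that carry receptors to their compartments or present ligands to them were tested as a list of 16. For this list and those that follow, 9.21% of all genes tested passed with CGRP in IAIE cells, 5.32% higher and 3.89% lower. In CD11c cells 10.9% passed, 6.29% higher and 4.59% lower. CGRP raised 2 of the 16 in IAIE cells, Cd36 and the endosomal protease gene Ctsl, and lowered 0 (edgeR, with 3 lower at an unadjusted p under 0.05, 1 in DESeq2 and 0 in limma-voom). The Ctsl call was lost without replicate 1 or 2 of IAIE control or any IAIE CGRP library (adjusted p up to 0.0818, edgeR), which leaves 1 of 16 higher. It held in each of the 10 other fits, where its adjusted p was at most 0.0413. On the higher side DESeq2 and limma-voom each called 4 of the 16, and 4 had an unadjusted p under 0.05 in edgeR. In CD11c cells CGRP raised 1, Cd36, and lowered 3: Cd180, a TLR4-like surface protein, its partner Ly86, and Unc93b1, the chaperone that moves nucleic acid receptors to endosomes. Cd36 went from 1114 ± 16.5 to 1889 ± 373 CPM in IAIE cells (0.76 ± 0.14, adjusted p = 0.000963, edgeR) and from 777 ± 24.0 to 2193 ± 307 CPM in CD11c cells (1.5 ± 0.14, adjusted p = 1.32e-06, edgeR). Unc93b1 went from 369 ± 9.04 to 182 ± 24.3 CPM in CD11c cells (-1.02 ± 0.15, adjusted p = 0.000152, edgeR) and gave -0.48 ± 0.15 in IAIE cells (adjusted p = 0.0581, edgeR). Cd180 went from 51.5 ± 11.1 to 22.3 ± 2.19 CPM in CD11c cells (-1.20 ± 0.22, adjusted p = 0.00109, edgeR), and Ly86 gave -0.91 ± 0.24 (adjusted p = 0.0177, edgeR), a call lost without replicate 3 of CD11c control or of CD11c CGRP (0.0704 and 0.0836). Cd180, Ly86 and Unc93b1 are also well expressed in B cells, whose markers are given above beside Tlr9.

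Of 19 adaptors and kinases 1 passed in each subset, a smaller share than the 9.21% and 10.9% of all genes tested. This was Ikbkg, the regulatory subunit of the IkB kinase, which rose by 1.43 ± 0.17 on the log2 scale in IAIE cells and 0.95 ± 0.17 in CD11c cells (adjusted p = 2.19e-05 and 0.000739, edgeR). Myd88 was at 51.9 ± 4.52 CPM in IAIE control and 74.9 ± 12.9 CPM in IAIE CGRP, and at 66.8 ± 4.98 and 92.1 ± 10.8 CPM in CD11c cells. Its libraries did not overlap in either subset, but the estimates of 0.53 ± 0.17 and 0.47 ± 0.16 did not pass (adjusted p = 0.0512 and 0.0722, edgeR), and in IAIE cells 4 of 10 other fits did. Ticam1 gave -0.13 ± 0.15 and -0.26 ± 0.15 (adjusted p = 0.678 and 0.348, edgeR).

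Among 12 transcription factors Irf7, the interferon regulatory factor used by TLR7 and TLR9, rose in both subsets, from 66.3 ± 16.6 to 333 ± 60.4 CPM in IAIE cells (2.33 ± 0.30, adjusted p = 4.77e-05, edgeR) and from 45.0 ± 24.8 to 256 ± 54.9 CPM in CD11c cells (2.46 ± 0.30, adjusted p = 1.92e-05, edgeR). In IAIE cells 4 of the 12 fell: the NF-kB genes Nfkb1 (-0.96 ± 0.11), Rel (-0.69 ± 0.14) and Nfkb2 (-0.59 ± 0.13) and the interferon regulatory factor Irf8 (-0.79 ± 0.18), with adjusted p of 1.78e-05, 0.00259, 0.00690 and 0.00697 (edgeR). Nfkb2 is named after its values were seen. In CD11c cells 0 of the 12 fell in edgeR, although 4 were lower at an unadjusted p under 0.05, and DESeq2 called 3 and limma-voom 2.

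Of 15 tested negative regulators Socs1, an inhibitor of cytokine signalling, rose in both subsets (1.40 ± 0.30 and 1.16 ± 0.29, adjusted p = 0.00484 and 0.0129, edgeR), and Tnip3, an inhibitor of NF-kB activation, fell in both (-1.11 ± 0.17 and -1.27 ± 0.17, adjusted p = 0.000341 and 3.17e-05, edgeR). Irak3, which blocks signalling by MyD88-linked kinases, rose in CD11c cells (0.79 ± 0.21, adjusted p = 0.0190, edgeR), and Zc3h12a, an RNase that degrades cytokine transcripts, fell in IAIE cells (-0.45 ± 0.12, adjusted p = 0.0230, edgeR). In edgeR the remaining 12 in each subset did not pass, while DESeq2 called 7 of the 15 in IAIE cells, 2 higher and 5 lower, and 4 in CD11c cells, 2 each way. The Zc3h12a call was lost in 2 of 10 other fits (adjusted p up to 0.218) and without replicate 1 or 2 of IAIE control or any IAIE CGRP library (up to 0.109, edgeR). In CD11c cells the Socs1 call was lost without replicate 1 or 2 of control or of CGRP (up to 0.0828, edgeR), and that of Irak3 without replicate 2 or 3 of control or replicate 2 of CGRP (up to 0.137, edgeR).

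Of 16 tested genes that receptor signalling is known to induce, 5 rose and 1 fell in IAIE cells and 7 rose and 0 fell in CD11c cells (edgeR, with 0 lower at an unadjusted p under 0.05 and 0 in DESeq2 and limma-voom). Nos2, the inducible nitric oxide synthase, rose from 2.51 ± 1.0 to 37.3 ± 9.20 CPM in IAIE cells and from 1.45 ± 1.60 to 44.2 ± 42.3 CPM in CD11c cells (3.89 ± 0.66 and 5.18 ± 0.72, adjusted p = 0.000697 and 5.96e-05, edgeR). Its control levels were near the floor, at 5 to 11 counts a library in IAIE and 1 to 8 in CD11c cells. The CD11c CGRP libraries were uneven, from 12.4 to 92.2 CPM. The size of the Nos2 rise is therefore uncertain in both subsets. The filter on low counts kept Nos2 mainly for its level in CGRP libraries. Nos2 is 1 of the 5 and 1 of the 7 risen genes, so these counts rest in part on the filter. The chemokine genes Ccl5 (1.85 ± 0.40 and 1.92 ± 0.39) and Cxcl10 (1.48 ± 0.33 and 1.62 ± 0.33) rose in both, with adjusted p between 0.00250 and 0.00590 (edgeR). Ifnb1, which encodes interferon beta, rose in CD11c cells (2.28 ± 0.57, adjusted p = 0.0121, edgeR), with libraries that overlapped, and Il10 fell in IAIE cells from 56.4 ± 5.98 to 19.8 ± 8.01 CPM (-1.52 ± 0.33, adjusted p = 0.00524, edgeR). The Ifnb1 call was lost in limma-voom (adjusted p = 0.249) and without replicate 3 of CD11c control or replicate 2 of CD11c CGRP (0.0682 and 0.0774, edgeR). In IAIE cells that of Ccl5 was lost without replicate 2 of IAIE CGRP (0.0509, edgeR), and that of Nos2 in limma-voom (0.0915). Medians of the list were 0.59 and 0.54, beside -0.02 and 0.00 over all genes.

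Of 9 genes for endogenous ligands of TLR2 and TLR4, 0 passed in IAIE cells in edgeR, DESeq2 and limma-voom, 1 having an unadjusted p under 0.05 in edgeR, and 3 passed in CD11c cells. Tnc, which encodes tenascin C, was at 0.952 ± 1.65 CPM in CD11c control and 33.1 ± 17.4 CPM in CD11c CGRP (5.56 ± 1.08, adjusted p = 0.00173, edgeR). Its control level rests on 7 counts in 1 library and 0 in the other 2, and without that library, replicate 1, the fitted estimate was 10.11, which against a group at 0 depends on the fit and is no bound. The proteoglycan gene Vcan gave 1.61 ± 0.34 (adjusted p = 0.00360, edgeR). Fn1, fibronectin, went from 5804 ± 515 to 2699 ± 178 CPM (-1.10 ± 0.26, adjusted p = 0.00843, edgeR). Fibroblast markers summed to 74.9 to 388 CPM in CD11c CGRP libraries against 24.5 to 35.6 CPM in CD11c control, and their part in the Tnc and Vcan results was not tested.

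**Figure D5:**
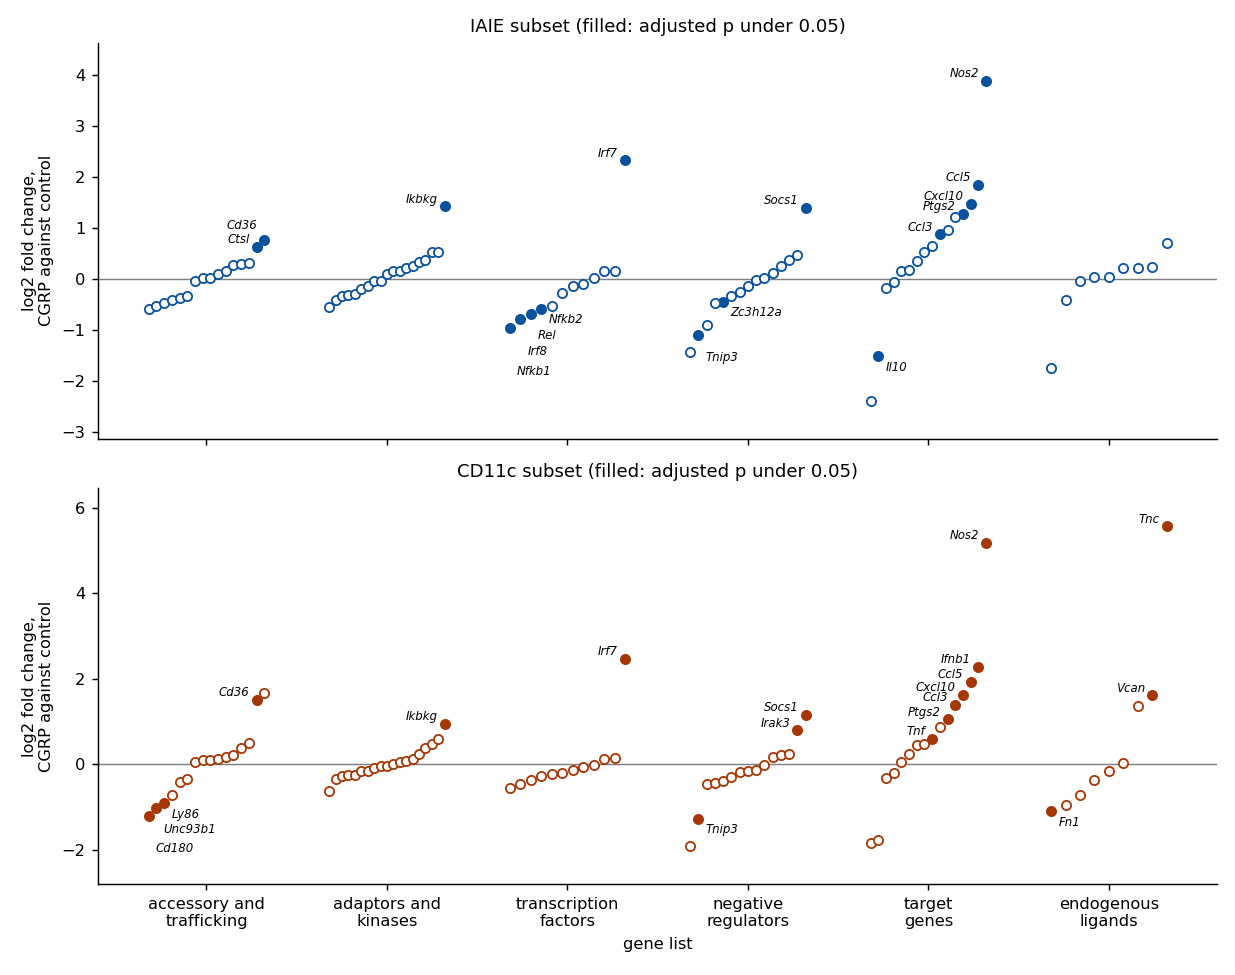
Log2 fold change of CGRP against control for every tested gene of 6 lists, IAIE subset above and CD11c subset below, sorted within each list, with filled points and names for an adjusted p under 0.05. Irf7 is raised by 2.33 and 2.46, and Cd180, Unc93b1 and Ly86 are filled below 0 in the CD11c subset.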

How the data were processed

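Total RNA of sorted mouse synovial macrophages was sequenced in 12 libraries, 3 for each subset and treatment, grouped by the sample labels. The authors deposited raw counts, 1 value per gene symbol, with no normalisation. Per the labels and methods, they trimmed reads with Trim Galore, checked them with FastQC, aligned them to mm10 with HISAT2 and counted them with featureCounts. Versions, annotation and strand setting are not given in the sources used here. A combined table repeats these counts, and 6 further columns in it that match no sample label were not used.

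Genes were kept by edgeR's filterByExpr (minimum count 10, minimum total 15), which left 11927, and TMM scaling was applied. A quasi-likelihood model (edgeR 4.0.16, R 4.3.3) was fitted to all 12 libraries with 4 group means, from which 5 contrasts were taken. Tests were two-sided, with Benjamini-Hochberg adjustment over all genes and a threshold of 0.05. Values are mean ± SD, and log2 fold changes are estimate ± SE. The detection floor of 3 counts covers counting error only. The sources used here do not say whether PCR copies were removed before counting. Exon lengths are from GENCODE M21 and upstream windows from RefSeq, both on GRCm38. The alternatives were RLE and upper-quartile scaling, 2 other filters, the replicate number as a block, 1 surrogate variable (sva 3.50.0), fits restricted to the groups compared, DESeq2 1.42.0, limma-voom (limma 3.58.1), thinned counts, the longest transcript, and leaving out each library. With 3 libraries against 3 an exact permutation test cannot go below 0.1, so none is given.

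The 10 genes and the pathway and marker lists were chosen with earlier results of these data known. The text names the 10 genes, the rest of the family, Ly96, Cd180, Unc93b1, Myd88, Ticam1 and Irf7 whatever their values. For each pathway list and CGRP contrast it also names at most 3 risen and 3 fallen genes that passed, taken by size of change. Other genes, among them Fcgr1, Lyz2, Lyve1 and the cell type markers named singly, were picked with their values known. Likeness is given for the 3 closest genes at most. The result for 1 marker gene is not reported here.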

Additional observations from a re-analysis of the deposited data

Results flagged for a closer look

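The CGRP effect on Nfkb1, which encodes the p105 precursor of an NF-kB subunit, differed between the subsets: it was higher in CD11c than in IAIE cells by 0.88 ± 0.16 on the log2 scale (interaction, adjusted p = 0.0180, edgeR). Nfkb1 went from 879 ± 24.3 to 453 ± 27.9 CPM (SD, n = 3) in IAIE cells and from 1093 ± 23.3 to 1040 ± 115 CPM in CD11c cells, lower in all 3 IAIE CGRP libraries and overlapping in the CD11c subset. The difference was between 0.81 and 0.93 with each library left out in turn, and its adjusted p passed in 5 of these 12 fits and ran from 0.0138 to 0.108 (edgeR). It passed in all 10 other fits, with adjusted p of 3e-05 to 0.0289.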

How the results depend on the processing

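The Tlr4 calls in both subsets, the Tlr9 call in the CD11c subset and the Tlr2, Tlr7 and Tlr13 calls between subsets held in every fit run. In the IAIE subset CGRP called 1 gene of 10, and 2 with upper-quartile scaling, with every gene of at least 1 count, with at least 10 counts in every library and with DESeq2, Tlr9 being the second gene in 3 of these and Cd14 with every gene. With a library left out the count was 1 to 2 there and 3 to 6 for the subsets in control, where it was 5. Of the single values 2156 stayed the same. These kept direction and side of the threshold (or had no adjusted p in DESeq2), or were per-length levels within 1 SD. Another 47 passed newly, 52 no longer passed, 47 changed sign and 5 per-length levels moved by at least 1 SD with the longest transcript. No other count of the 10 genes moved by more than 1.5 times. The Tlr8 call between subsets in control was lost in 7 of 11 other fits. The interaction count over all genes was 18 and became 97 in DESeq2, 171 with every gene of at least 1 count, 36 and 52 with a block, 5 with at least 10 counts in every library and 2 in limma-voom (edgeR unless named). Accessory genes lower in CD11c cells were 3, and 5 in DESeq2 and limma-voom.

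Signs changed only in values that did not pass. For CGRP in CD11c cells these were Tlr2 (0.00 in limma-voom and with thinned counts), Tlr3 (-0.03 with upper-quartile scaling, -0.04 with the replicate block, -0.36 in limma-voom) and Il10 (0.09 with 1 surrogate variable). For CGRP in IAIE cells they were Ly96 (-0.08 thinned) and Tnc (0.04 with every gene, 0.51 with 1 surrogate variable). For the interaction they were Tlr8 (-0.05 thinned) and Tlr13 (0.02 with the replicate block, 0.04 with the block within treatment, 0.04 in limma-voom, 0.37 thinned). With a library left out, the CGRP effect in CD11c cells ran from -0.10 to 1.01 for Tlr1, -0.33 to 0.07 for Tlr2, -0.46 to 0.41 for Tlr3, -0.04 to 0.52 for Tlr6, -0.03 to 0.35 for Tlr7, -0.02 to 0.16 for Cd14, -1.37 to 0.29 for Tlr5 and -0.47 to 0.23 for Il10. In IAIE cells it ran from -0.22 to 0.45 for Ly96 and -0.63 to 0.56 for Tnc. The interaction ran from -0.07 to 0.33 for Tlr2, -0.17 to 0.39 for Tlr8 and -0.17 to 0.28 for Tlr13, and the subset difference with CGRP from -0.14 to 0.17 for Tlr4 and -0.01 to 0.16 for Cd14. The causes were not tested.

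The labels give every group replicates 1 to 3 without saying what a number marks. Deviations of same-numbered libraries correlated at -0.00121, 0.0470 and -0.0260 between the subsets in control and at 0.284, 0.0750 and 0.101 with CGRP (7161 genes), and at 0.163, 0.130 and 0.0138 between CD11c treatments, so the numbers were not taken to pair the libraries. With the replicate block, genes called with CGRP rose from 1099 to 1204 in IAIE and from 1298 to 1423 in CD11c cells. Among the 10 genes it moved Tlr8, with CGRP in CD11c cells to an adjusted p of 0.0339 (edgeR) and between subsets with CGRP to 0.0431, and Cd14 between subsets in control to 0.0374. Depth limits Tlr3, which rests on 4 to 37 counts a library. CGRP and subset effects of Tlr1, Tlr3 and Tlr6 had an SE of 0.37 to 0.68 on the log2 scale.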

Other observations

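The CD11c and IAIE cells also differed in genes around the receptors, named here after their values were seen. The proteases Lgmn, Ctsb and Ctsl, which cut endosomal receptors into their working form, were lower in CD11c control than in IAIE control cells: Ctsb was at 2300 ± 28.4 against 4764 ± 375 CPM (SD, n = 3, log2 fold change -1.05 ± 0.10 SE, adjusted p = 7.26e-07, edgeR), and Ctsl and Lgmn gave -1.57 ± 0.18 and -0.77 ± 0.13. With CGRP the same 3 genes passed again, at -1.19 ± 0.10, -1.69 ± 0.18 and -0.70 ± 0.13. Ctss, another protease of the same list, was at 1468 ± 81.1 CPM in CD11c control and 1287 ± 25.5 CPM in IAIE control. It was higher without overlap but did not pass. With CGRP it passed as lower, at 1163 ± 121 against 1595 ± 119 CPM. Of 16 accessory genes 6 were lower and 0 higher in CD11c control cells, and 7 lower and 1 higher with CGRP (edgeR). With CGRP 8.51% of all genes tested were lower and 8.36% higher. Of 12 transcription factors 4 were higher in CD11c control cells, among them Rel (1.47 ± 0.14), Irf5 (1.09 ± 0.12) and Relb (0.94 ± 0.15), and 2 were lower, among them Irf8 (-1.97 ± 0.19, adjusted p = 5.33e-07, edgeR). Of 19 adaptors and kinases 1 was higher and 1 lower. Over all genes tested 10.2% passed as higher and 10.9% as lower in CD11c control cells.

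Inducible target genes were split. In control libraries 4 of 16 were higher in CD11c cells and 7 lower (edgeR), beside 10.2% and 10.9% of all genes tested. Il1b, which encodes interleukin 1 beta, was at 3268 ± 255 CPM in CD11c control and 707 ± 124 CPM in IAIE control (2.21 ± 0.18, adjusted p = 5.27e-08, edgeR), and Il6 gave 1.38 ± 0.28. Tnf and the chemokine gene Ccl4 were lower in CD11c cells, at -1.80 ± 0.18 and -2.06 ± 0.34 in control and -1.39 ± 0.18 and -2.17 ± 0.33 with CGRP. Macrophage and dendritic cell markers also moved with the subsets, 9 of 10 macrophage markers being lower in CD11c control cells, and their part in these values was not tested.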
